A study of Mus musculus with 18 samples.

Results

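Small cell lung cancer arises when the tumor suppressors Trp53 and Rb1 are both lost, and the TKO mouse models this loss. The genes described here are 40 genes listed as direct transcriptional targets of Trp53, out of 46078 genes in the RNA count table. That p53 regulates every one of these genes in mouse cells was not tested here. Each was found by its symbol in GENCODE and followed through its Ensembl identifier in all 9 RNA-seq libraries. Accessibility came from the 40 ATAC-seq peaks, of 111664, whose middle lies within 1000 bp of an annotated start of one of these genes. These peaks belong to 38 genes, because Bbc3 and Plk3 had none and Sesn1 and Polk had 2 each.

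TKO mice carry LoxP-flanked Rb1, Trp53 and, per the labels, Rbl1, whereas parts of the study's text name Rbl2 in place of Rbl1. CARM1 knockout tumors (TKO;Carm1KO) also carry LoxP-flanked Carm1, the gene of an arginine methyltransferase. NFIB mutant tumors (TKO;NfibR388K) carry a germline Nfib allele in which the arginine that CARM1 methylates is a lysine. Adenovirus that expresses Cre was given into the airways at 8 weeks of age, and the tumors were taken 28 weeks later from 3 animals per genotype. Cre from this virus acts in whichever airway cells take it up, a tdTomato reporter marked the sorted cells, and the strain background was mixed. The text of the study speaks of tumor biopsies, of cells sorted for tdTomato and, for ATAC-seq, of sorted cancer cell lines, so the exact source of the material is not settled here. The floxed Trp53 allele is shared by all 3 groups, controls included, so no group is a Trp53 wild-type reference.

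Trp53 encodes p53, a transcription factor that DNA damage and other stresses stabilize. Mdm2 and Mdm4 restrain it, and p53 in turn activates Mdm2, which closes a feedback loop. Its other targets halt the cell cycle, drive apoptosis through mitochondria or death receptors, repair DNA and adjust metabolism. Many of them also respond to other transcription factors, so they can be transcribed in cells without p53.

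RNA depth ran from 15848866 to 20915057 counts on genes per library and ATAC depth from 26917178 to 47653979 counts on peaks. Values below are CPM, counts scaled to the library total and by the TMM factors of edgeR, and 3 counts in a library correspond to 0.131 to 0.203 CPM in RNA. All 40 genes and all 40 peaks passed the filter on low counts. Trp53 RNA was 10.9, 9.62 and 12.4 CPM in the TKO libraries. It was 7.86, 5.54 and 6.24 CPM in the CARM1 knockout and 7.60, 3.70 and 7.56 CPM in the NFIB mutant. Both mutants lay below every TKO library without passing the test (log2 fold change -0.75 ± 0.39, adjusted p = 0.162, and -0.80 ± 0.39, adjusted p = 0.123, edgeR). Carm1 RNA was 97.7, 103 and 44.5 CPM in TKO and 63.4, 79.1 and 50.8 CPM in the CARM1 knockout, which overlap. Gene counts sum over all exons and do not resolve the part that Cre removes, so neither Trp53 nor Carm1 checks the labels, and a coding change in Nfib is likewise invisible to them. Nfib RNA itself was 420 to 580 CPM in TKO, 74.5 to 216 CPM in the CARM1 knockout and 83.3 to 105 CPM in the NFIB mutant, lower in both (-2.06 ± 0.40, adjusted p = 0.00799, and -2.49 ± 0.41, adjusted p = 0.00325).

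The labels call every library small cell lung cancer cells, and the marker lists differ between libraries. Neuroendocrine genes (12) summed to 1766 to 3922 CPM in TKO and to 33.5 to 51.2 CPM in the NFIB mutant, and CARM1 knockout libraries 1, 2 and 3 held sums of 59.3, 188 and 1865 CPM. The sum of 6 fibroblast genes, all called higher in both mutants, was 16.6 to 65.3 CPM in TKO, 14817 to 26686 CPM in the CARM1 knockout and 10087 to 16105 CPM in the NFIB mutant. Leukocyte genes (12) summed to 2.26 to 49.0, 169 to 2584 and 13.5 to 438 CPM in the 3 groups, with Cd3e, Cd3d and Ms4a1 at 0 in every library. Lung epithelial genes (10) summed to 285 to 629, 1.83 to 267 and 2.86 to 2055 CPM, and NFIB mutant library 1 alone held the 2055 CPM. Endothelial genes (6) summed to 5.86 to 21.3, 4.02 to 73.9 and 1.82 to 12.2 CPM. The fibroblast sums separate both mutants from TKO, the endothelial sums overlap in all groups, and the neuroendocrine sum of CARM1 knockout library 3 lies within the TKO range. The part of these differences in the results below was not tested. In bulk libraries, fewer cells of a type and less RNA per cell cannot be told apart.

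Start sites of some of these genes hold p53 response elements. A window of 2001 bases centred on each start-site peak was read from GRCm38.p6 and searched for the p53 response element, here 2 adjoining 10-base elements whose 4-base cores run from C to G with A or T at both places between, and whose other bases differ from the consensus at no more than 2 positions. The pattern reads the same on both strands. It was present in 4 of 40 windows and in 1.08% of all 22076 start-site windows. The genes were listed as p53 targets, so this share describes the list. The sites of Ccng1, Pidd1 and Rps27l follow because they show the element within the open chromatin of a start site, written 5′ to 3′ on the strand of the gene with the cores in capitals. Pmaip1 is the fourth.
Ccng1: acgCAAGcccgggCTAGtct
Pidd1: tggCAAGctgggaCATGtct
Rps27l: gggCTTGttgagaCTTGtcc

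The Ccng1 site (chr11:40754936-40754955, minus strand) is intronic, 365 bases downstream of the nearest annotated start, with 1 mismatch. The Pidd1 site (chr7:141443303-141443322, minus strand) lies 7 bases downstream of the nearest start, in non-coding exon sequence of 9 of the 10 transcripts that span it, with 2 mismatches. The Rps27l site (chr9:66946296-66946315, plus strand) is intronic in the 3 transcripts that span it, with 1 mismatch. All of these lie inside the peak. The NFI motif TGGCNNNNNGCCA was found in 0 of 40 windows and in 5.66% of all, and the AP-1 motif TGANTCA in 15 of 40 (37.5%) and in 40.4% of all. Both patterns also read the same on either strand. A match is a string of letters and not a measured site.

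In the RNA, the list split rather than moving together. Against TKO, 6 of the 40 genes rose in the CARM1 knockout (Btg1, Plk2, Fas, Tnfrsf10b, Phlda3 and Dram1) and 10 fell (Btg2, Mdm4, Ppm1d, Pidd1, Zmat3, Sesn1, Cdkn1a, Ccng2, Ddb2 and Xpc). Among all 15514 genes tested, 20.5% rose and 18.3% fell, so neither count stands far from the background. In the NFIB mutant 8 rose, namely the 6 above with Sfn and Plk3, and 7 fell, namely Btg2, Mdm4, Ppm1d, Pidd1, Zmat3, Sesn1 and Trp53inp1. The background there was 22.3% higher and 23.5% lower. Counting genes whose mutant libraries all lay beyond every TKO library, 11 were higher and 9 lower in the CARM1 knockout (27.3% and 27.5% of all genes) and 8 higher and 8 lower in the NFIB mutant (27.2% and 30.5%). The median log2 fold change of the 40 genes was -0.05 in the CARM1 knockout and -0.12 in the NFIB mutant, beside -0.03 and -0.05 over all genes. A call is an adjusted p under 0.1 (quasi-likelihood test of edgeR, Benjamini-Hochberg over all genes tested) and a log2 fold change of at least 0.8 in size. The same TKO libraries serve both comparisons, which are therefore not independent.

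**Figure D1:**
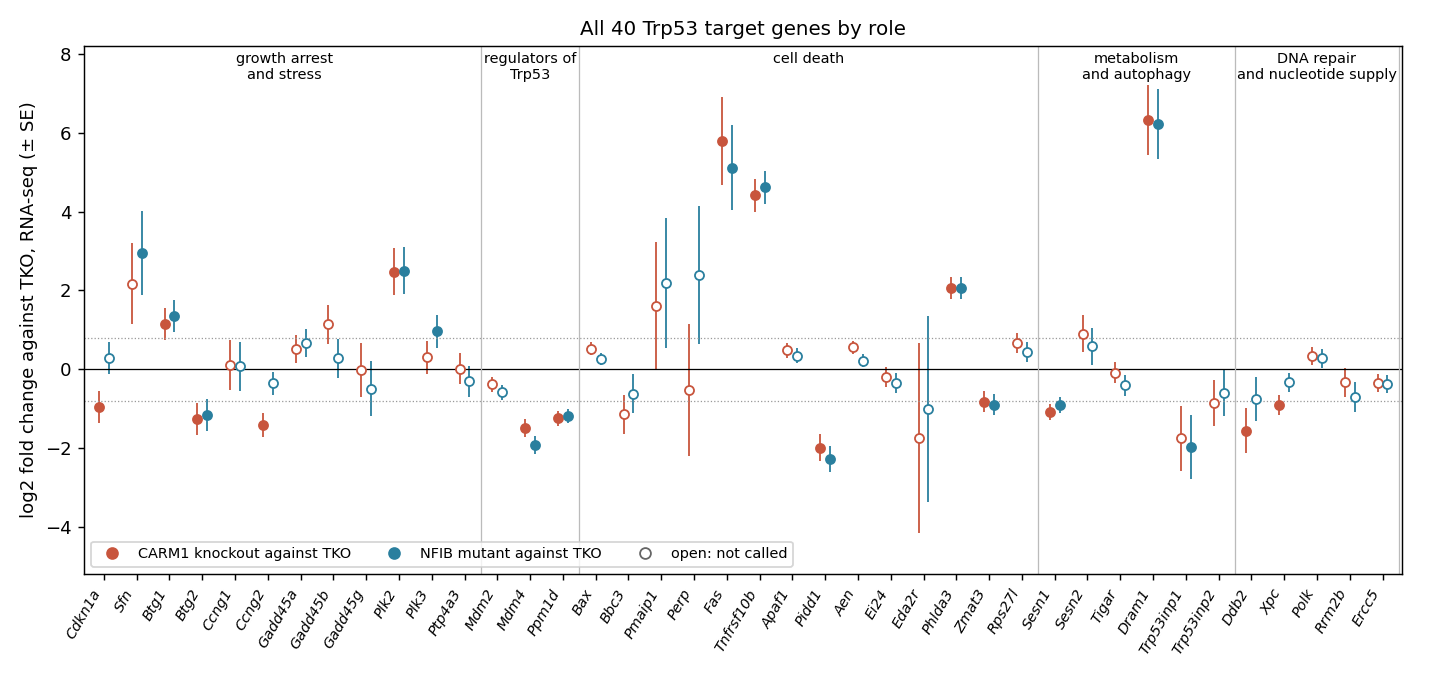
RNA log2 fold change against TKO (vertical axis, ± standard error) of the 40 Trp53 target genes, grouped by role, in the CARM1 knockout and the NFIB mutant, 3 libraries per genotype. Filled points were called, and dotted lines mark 0.8 in either direction. Dram1, Fas and Tnfrsf10b stand above 4 in both mutants, whereas Mdm4, Ppm1d, Pidd1, Btg2, Trp53inp1 and Eda2r lie below -1 in both.

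Regulators of p53 had the lowest median of the role groups (log2 fold change -1.24 and -1.18 over 3 genes). Mdm4, which binds p53 and blocks its transactivation domain, fell. Its RNA was 154, 190 and 157 CPM in TKO, 64.5, 55.4 and 58.8 CPM in the CARM1 knockout and 52.5, 49.9 and 30.3 CPM in the NFIB mutant, so the mutant libraries sit far below TKO (log2 fold change -1.49 ± 0.23, adjusted p = 0.00298, and -1.92 ± 0.23, adjusted p = 0.00101). Ppm1d, the phosphatase WIP1 that removes activating phosphates from p53 and its kinases, also fell. It was 59.7, 51.7 and 49.4 CPM in TKO against 23.3, 21.3 and 23.3 CPM in the CARM1 knockout and 28.8, 21 and 21 CPM in the NFIB mutant (-1.24 ± 0.19, adjusted p = 0.00308, and -1.18 ± 0.19, adjusted p = 0.00276). Ppm1d varied little within a genotype, and no mutant library came near a TKO library.

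Mdm2, the ubiquitin ligase that targets p53 for degradation, changed less. TKO libraries held 66.9, 80.2 and 87.3 CPM, CARM1 knockout libraries 71.0, 58.8 and 49.8 CPM and NFIB mutant libraries 57.8, 55.7 and 42.6 CPM. The CARM1 knockout overlapped TKO (log2 fold change -0.38 ± 0.20, adjusted p = 0.162), while the NFIB mutant lay below it by less than the fold required for a call (-0.59 ± 0.20, adjusted p = 0.0452). With library totals Mdm2 RNA was called lower in the NFIB mutant (-0.91). The start-site peaks of Mdm2, Mdm4 and Ppm1d had log2 fold changes from -0.38 to 0.13, and edgeR called none. The Mdm2 peak was called lower in the NFIB mutant by DESeq2, with its size factors (-0.53) and without NFIB mutant library 2, and the Mdm4 peak higher in the CARM1 knockout with library totals (0.71) and with totals without dominant peaks (0.51).

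Death receptors rose from low levels. Fas, the receptor of Fas ligand, had 0.0480, 0.0875 and 0.798 CPM in TKO, where the lowest 2 values are 1 and 2 counts. It had 21.4, 9.04 and 22.6 CPM in the CARM1 knockout and 13.1, 14.9 and 5.21 CPM in the NFIB mutant. The groups were far apart (log2 fold change 5.79 ± 1.11, adjusted p = 0.0074, and 5.12 ± 1.08, adjusted p = 0.00838). With each library left out the values ran from 5.31 to 7.91 and from 4.63 to 7.23. Tnfrsf10b, the mouse receptor of the death ligand TRAIL, had 1.78, 1.88 and 2.30 CPM in TKO, 44.0, 59.7 and 23.3 CPM in the CARM1 knockout and 40.7, 39.8 and 66.3 CPM in the NFIB mutant. It rose in both (4.41 ± 0.42, adjusted p = 0.00059, and 4.62 ± 0.42, adjusted p = 0.000419), and its TKO libraries hardly differed from each other. Phlda3, a pleckstrin-homology protein that restrains Akt, rose about as much in both: 15.9, 11.5 and 13.1 CPM in TKO, 48.9, 70.5 and 49.1 CPM in the CARM1 knockout and 67.5, 37.9 and 61.9 CPM in the NFIB mutant (2.06 ± 0.28, adjusted p = 0.00206, and 2.05 ± 0.28, adjusted p = 0.00162).

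Pidd1, a death-domain protein that assembles the caspase-2 platform, moved the other way. It had 53, 41.8 and 54.2 CPM in TKO, 9.76, 10.7 and 17.1 CPM in the CARM1 knockout and 10.5, 13.4 and 6.73 CPM in the NFIB mutant. This was the lowest fold change of the list in both comparisons (log2 fold change -1.98 ± 0.33, adjusted p = 0.00416, and -2.28 ± 0.33, adjusted p = 0.00202). Zmat3, an RNA-binding zinc finger protein, fell by 0.82 and 0.90 on the log2 scale. The Zmat3 call was lost without TKO library 3 in both comparisons, with no filter or without CARM1 knockout library 1 in the first and without NFIB mutant library 2 in the second.

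Of the 14 cell death genes, 3 rose and 2 fell in each mutant, as described above, beside 20.5% and 18.3% of all genes in the CARM1 knockout and 22.3% and 23.5% in the NFIB mutant. The other 9 were not called. Bax, which permeabilizes the outer mitochondrial membrane, had 71.4, 59.8 and 68.2 CPM in TKO, 100, 89.6 and 97.0 CPM in the CARM1 knockout and 68.2, 95.1 and 75.7 CPM in the NFIB mutant. CARM1 knockout libraries lay above TKO, but the log2 fold change of 0.52 ± 0.16 (adjusted p = 0.0393) was below the size needed for a call, and that of the NFIB mutant was 0.26 ± 0.16 (adjusted p = 0.222). Apaf1, the scaffold of the apoptosome, and Aen, an exonuclease, had log2 fold changes of 0.48 and 0.55 in the CARM1 knockout and 0.34 and 0.21 in the NFIB mutant, none of them called. The BH3-only genes Bbc3 (Puma) and Pmaip1 (Noxa) were not called either, although Bbc3 (-1.14 ± 0.50, adjusted p = 0.106, in the CARM1 knockout) was called lower there in 5 of 16 settings, namely with library totals, with at least 10 counts in every library, by DESeq2, and without TKO library 2 or NFIB mutant library 2. Pmaip1 was near 0 in TKO libraries 1 and 2, at 0 and 0.0875 CPM, but at 4.17 CPM in TKO library 3, and between 1.46 and 10.05 CPM in the mutants (log2 fold change 1.61 ± 1.62, adjusted p = 0.459, and 2.18 ± 1.65, adjusted p = 0.307). Perp, Ei24, Eda2r and Rps27l complete the genes not called, and Rps27l was called higher in the CARM1 knockout only without TKO library 2.

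**Figure D2:**
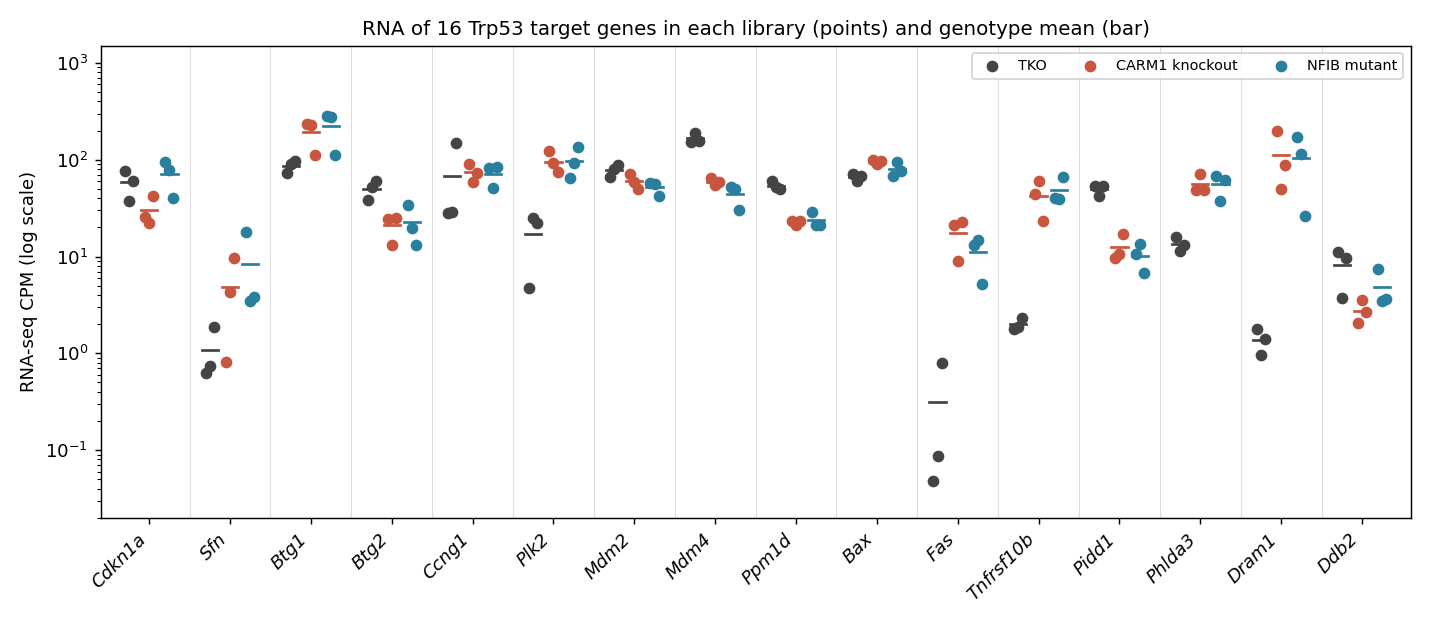
RNA level in CPM (logarithmic vertical axis) of 16 Trp53 target genes in each of the 9 libraries, ordered by role, with a bar at the mean of each genotype. All mutant libraries lie above TKO for Fas, Tnfrsf10b and Dram1, whose fitted log2 fold changes exceed 4, whereas Ccng1 is high in TKO library 3 only among the TKO libraries.

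Cell cycle and stress targets went in both directions. Cdkn1a encodes p21, the CDK inhibitor that carries out the p53-dependent G1 arrest. It had 77.1, 37.9 and 60.1 CPM in TKO, 25.8, 22.0 and 41.9 CPM in the CARM1 knockout and 94.7, 77.9 and 40.2 CPM in the NFIB mutant, with overlap in each case. Its fall in the CARM1 knockout was at the edge of the threshold (log2 fold change -0.96 ± 0.41, adjusted p = 0.0980) and was lost in 8 of 16 alternative settings, among them without TKO library 1 or 3, CARM1 knockout library 1 or 2, or NFIB mutant library 1 or 2, which enter through the shared spread. In the NFIB mutant it did not pass (0.28 ± 0.40, adjusted p = 0.587). Ccng1, cyclin G1, had 27.9, 29.0 and 149 CPM in TKO, 90.6, 59.6 and 72.2 CPM in the CARM1 knockout and 81.4, 51.4 and 83.3 CPM in the NFIB mutant. TKO library 3 lay above all 6 mutant libraries and the other TKO libraries below them, and the log2 fold changes were 0.11 ± 0.63 (adjusted p = 0.899) and 0.07 ± 0.63 (adjusted p = 0.932).

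The antiproliferative relatives Btg1 and Btg2 moved in opposite directions. Btg1 had 72.1, 90.8 and 97.6 CPM in TKO, 236, 228 and 112 CPM in the CARM1 knockout and 283, 274 and 112 CPM in the NFIB mutant, and it rose (log2 fold change 1.14 ± 0.41, adjusted p = 0.0607, and 1.36 ± 0.41, adjusted p = 0.0301). Btg2 had 38.2, 52.9 and 60.3 CPM in TKO, 24.7, 13.3 and 25 CPM in the CARM1 knockout and 34.4, 19.9 and 13.2 CPM in the NFIB mutant, and it fell (-1.26 ± 0.40, adjusted p = 0.0428, and -1.16 ± 0.40, adjusted p = 0.0478). No library of either mutant overlapped TKO for these genes. The Btg1 call in the CARM1 knockout was lost with library totals and without TKO library 1 or 2 or CARM1 knockout library 1 or 2. The Btg2 call was lost without TKO library 3 in both comparisons, without CARM1 knockout library 2 in the first, and without TKO library 2 or NFIB mutant library 2 or 3 in the second.

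Plk2, a polo-like kinase that acts at the centrosome, rose in both. It had 4.71, 24.8 and 22.2 CPM in TKO, 122, 91.6 and 74.3 CPM in the CARM1 knockout and 64.4, 93.0 and 135 CPM in the NFIB mutant (log2 fold change 2.48 ± 0.59, adjusted p = 0.0162, and 2.50 ± 0.59, adjusted p = 0.0129). Sfn, the epithelial 14-3-3 protein sigma, had 0.625, 0.744 and 1.86 CPM in TKO, 0.813, 4.26 and 9.55 CPM in the CARM1 knockout and 18, 3.45 and 3.81 CPM in the NFIB mutant. It rose in the NFIB mutant (2.96 ± 1.07, adjusted p = 0.0545) but not without its library 1 or without TKO library 1 or 2, and it did not pass in the CARM1 knockout (2.17 ± 1.04, adjusted p = 0.133), where it was called higher by DESeq2 and without CARM1 knockout library 1. NFIB mutant library 1 is the one with the most lung epithelial RNA, and it also held 42.0 CPM of Perp, an epithelial desmosomal protein, against at most 5.10 CPM elsewhere, and 33.8 CPM of Trp63 against at most 0.991 CPM. Ccng2, cyclin G2, fell in the CARM1 knockout (-1.41 ± 0.30, adjusted p = 0.00973) and not in the NFIB mutant (-0.36 ± 0.29, adjusted p = 0.341). Plk3 rose in the NFIB mutant with overlap (0.96 ± 0.42, adjusted p = 0.0937), a call lost in 10 of 16 settings, including without any of the TKO libraries, CARM1 knockout library 1 or 2, or NFIB mutant library 2 or 3. The 3 Gadd45 genes, Ptp4a3 and Ccng1 were not called. Gadd45b, a stress sensor, had 1.14 in the CARM1 knockout and was called higher there by DESeq2, with at least 10 counts in every library, and without TKO library 1 or CARM1 knockout library 1.

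Among metabolic targets, Dram1 had the highest fold change of the list in both comparisons with all libraries in the fit. It encodes a lysosomal membrane protein that promotes autophagy. Its RNA was 1.78, 0.962 and 1.42 CPM in TKO, 198, 49.5 and 87.2 CPM in the CARM1 knockout and 171, 115 and 26.2 CPM in the NFIB mutant. The lowest mutant library was far above the highest TKO library (log2 fold change 6.33 ± 0.89, adjusted p = 0.00243, and 6.22 ± 0.88, adjusted p = 0.0019). With 1 library left out, the log2 fold change of Dram1 reached at most 6.69 in each comparison, and that of Fas 7.91 and 7.23. Sesn1, a leucine sensor that restrains mTORC1, fell by 1.09 and 0.90 on the log2 scale (adjusted p = 0.00625 and 0.0103), with the second call lost without TKO library 3 or NFIB mutant library 3. Its relative Sesn2 was not called. Trp53inp1 fell in the NFIB mutant only by the calls (-1.97 ± 0.82, adjusted p = 0.0844, against -1.75 ± 0.81, adjusted p = 0.125), with overlap in both, and this call was lost in 7 of 16 settings, among them no filter, the compared groups alone, and without TKO library 3, CARM1 knockout library 1 or NFIB mutant library 2 or 3. In the CARM1 knockout DESeq2 and library totals called it lower. Trp53inp2 and Tigar were not called.

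DNA repair targets fell or were not called. Ddb2, which recognizes ultraviolet damage, had 11.1, 3.76 and 9.62 CPM in TKO, 2.03, 3.56 and 2.70 CPM in the CARM1 knockout and 7.42, 3.45 and 3.62 CPM in the NFIB mutant. CARM1 knockout libraries lay just below TKO library 2 (log2 fold change -1.56 ± 0.56, adjusted p = 0.0629), and the call was lost in 6 of 16 settings, among them no filter and without TKO library 1 or 3 or CARM1 knockout library 1 or 3. The NFIB mutant overlapped TKO (-0.75 ± 0.55, adjusted p = 0.292). Xpc, its partner in nucleotide excision repair, fell by 0.91 in the CARM1 knockout (adjusted p = 0.0265), a call lost without TKO library 1, and had -0.33 in the NFIB mutant (adjusted p = 0.304). Polk, Rrm2b and Ercc5 were not called. Exons of 8 of the 40 genes (Cdkn1a, Bax, Ddb2, Ei24, Gadd45a, Plk3, Rrm2b and Tigar) overlap another gene. The strand setting of the counting is not given in the sources used here, so reads of an overlapping gene on the other strand may be included or left out.

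TKO library 3 stood out among the controls. It was the highest of the 3 TKO libraries for 23 of the 40 genes (57.5%), beside 39.2% of all genes tested. Its neuroendocrine sum was 3922 CPM, beside 1789 and 1766 CPM in TKO libraries 1 and 2, and the part of this difference was not tested. In the NFIB mutant, library 1 was the highest of its group for 20 of the 40 genes (50.0%), beside 37.1% of all genes tested. Eda2r, the receptor of an ectodysplasin form, had 0.192 and 0.0437 CPM in TKO libraries 1 and 2 and 27.7 CPM in library 3. Trp53inp1 had 26, 22.5 and 103 CPM, Trp53inp2 138, 139 and 645 CPM, and Sesn2 15.8, 12.5 and 47.3 CPM. With Ccng1 and Pmaip1, these are targets at which library 3 exceeded the other TKO libraries by more than the TKO libraries 1 and 2 differed. They were singled out after their values were seen. Without TKO library 3, 9 genes rose and 6 fell in the CARM1 knockout, beside 21.4% and 15.7% of all genes in that fit, with Ccng1, Pmaip1 and Sesn2 added to the genes that rose. In the NFIB mutant 11 rose and 3 fell, beside 22.9% and 20.8% of all genes, with Ccng1, Gadd45a, Pmaip1 and Sesn2 added, Plk3 lost from those that rose, and Mdm4, Ppm1d and Pidd1 left among those that fell. The Ccng1 log2 fold change was then 1.42 and 1.37. Leaving out CARM1 knockout library 3, whose neuroendocrine sum lay within the TKO range, left 6 genes higher and 9 lower (19.8% of all genes in each direction), and leaving out NFIB mutant library 1 left 7 higher and 7 lower (21.0% and 21.3%).

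Between the mutants no gene of the list was called by edgeR, and the background was 0.0% in each direction. At an unadjusted p under 0.05 there were 2 of the 40 genes and 1414 of the 15514 genes tested. DESeq2 called 1 of the 40, Ccng2, lower in the CARM1 knockout (log2 fold change -1.06, adjusted p = 0.0780), and 540 genes in all. Its edgeR values were -1.05 ± 0.29 and adjusted p = 0.495, with all CARM1 knockout libraries below all NFIB mutant libraries. At the start-site peaks edgeR and DESeq2 both called 0 of 40 between the mutants, with 1 and 0 at an unadjusted p under 0.05. Among all peaks edgeR called 0 of 111116, with 6813 at that p, and DESeq2 1060 of 111664, with 8985 at that p. For Cdkn1a the difference was -1.24 ± 0.41 (adjusted p = 0.524). The calls of Cdkn1a, Ddb2, Xpc, Sfn, Plk3 and Trp53inp1 against TKO in a single mutant are therefore not shown to differ between the mutants by either tool, and that of Ccng2 is shown to differ by DESeq2 and not by edgeR.

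Further lists give the setting. Of 25 regulators and partners of Trp53, 24 were tested, 1 rose and 2 fell in the CARM1 knockout, and 2 rose and 5 fell in the NFIB mutant, beside the 20.5% and 18.3% and the 22.3% and 23.5% of all genes, a difference that was not tested. Cdkn2a, which encodes the Mdm2 inhibitor p19Arf beside p16Ink4a, rose from 92.5 to 113 CPM in TKO to 295 to 381 and 352 to 588 CPM (log2 fold change 1.78 ± 0.23, adjusted p = 0.0016, and 2.21 ± 0.23, adjusted p = 0.000649). Chek1, the checkpoint kinase activated by Atr, fell by 1.51 and 1.68 (adjusted p = 0.00722 and 0.00387). Crebbp, a coactivator of p53, fell by 0.87 in the CARM1 knockout, and Atm, Atr, Trp53bp1 and Trp73 fell in the NFIB mutant. Of 40 further Trp53 targets, 16 rose and 6 fell in the CARM1 knockout and 17 rose and 5 fell in the NFIB mutant, with medians of 0.48 and 0.44 beside -0.03 and -0.05 over all genes. The counts that rose lie above the background of 20.5% and 22.3% and those that fell below the 18.3% and 23.5%, which was not tested. The log2 fold changes of these further targets ran from -8.22 to 7.01 in the CARM1 knockout and from -4.43 to 7.13 in the NFIB mutant. Thbs1, a secreted protein picked as an example after its values were seen, rose by 5.12 in the CARM1 knockout and by 4.98 in the NFIB mutant (adjusted p = 0.0314 and 0.0289).

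ATAC-seq counts at start sites report how open the promoter is to Tn5. Of the 40 peaks, 5 rose in each mutant, at Dram1, Fas, Pmaip1, Tnfrsf10b and the smaller Polk peak. Among all 22061 start-site peaks tested, 20.0% rose in the CARM1 knockout and 20.4% in the NFIB mutant. In the CARM1 knockout 17 of the 40 fell and in the NFIB mutant 16, beside 35.0% and 39.4% of all start-site peaks, so these shares too lie near the background. The median log2 fold change was -0.31 and -0.39, beside -0.32 and -0.38 over all start-site peaks. Over all peaks it was 0.22 in both comparisons, so start-site peaks as a class lay lower on this scale. All mutant libraries lay above TKO at 6 peaks and below at 18 in the CARM1 knockout (21.1% and 41.4% of all start-site peaks), and at 5 and 16 in the NFIB mutant (20.3% and 43.4%). Peak calls need an adjusted p under 0.1 over all peaks tested and a log2 fold change of at least 0.5. Many of the falls depend on scaling. The study estimated depth from start-site peaks of genes with uniform expression among the tumors, a scaling that was not applied here. With library totals in place of TMM, 10 peaks rose and 4 fell in the CARM1 knockout and 11 rose and 5 fell in the NFIB mutant, and the median over all peaks moved by 0.57. No share of all start-site peaks is given for this scaling, so these counts have no background beside them.

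**Figure D3:**
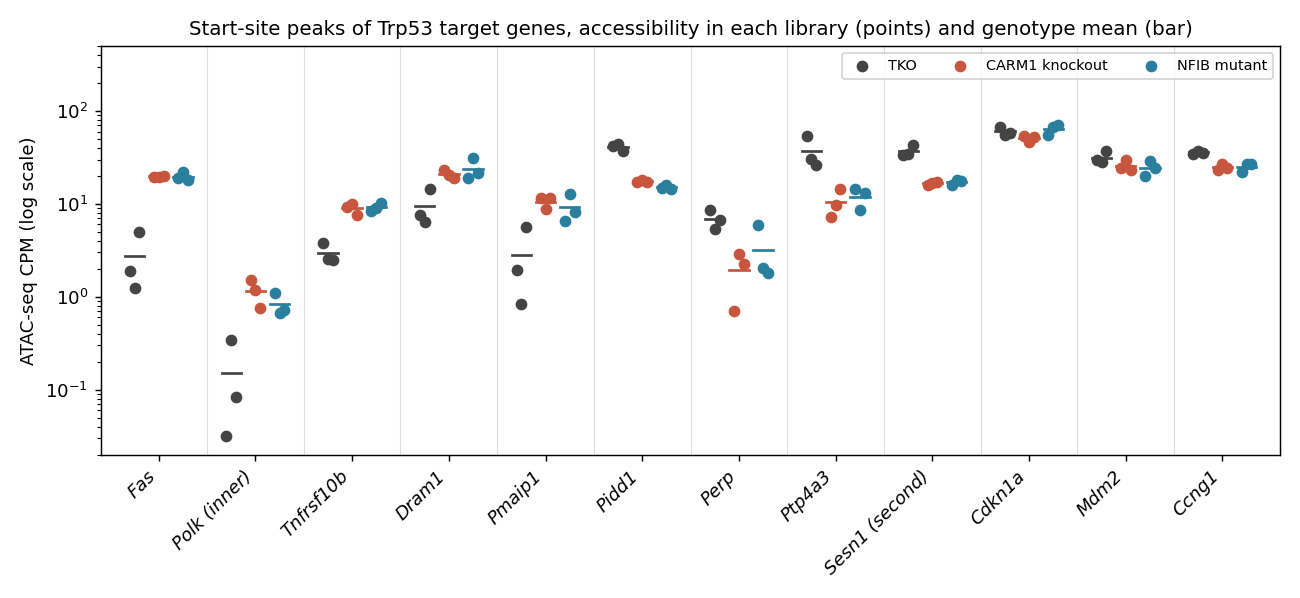
ATAC-seq level in CPM (logarithmic vertical axis) at 12 start-site peaks in each of the 9 libraries, with a bar at the mean of each genotype. Fas, Tnfrsf10b, Dram1, Pmaip1 and the inner peak of Polk are higher in all 6 mutant libraries than in TKO, and Pidd1, Ptp4a3 and the second Sesn1 peak lower, whereas Cdkn1a, Mdm2 and Ccng1 differ less.

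Fas had the largest rise at a start site by the mean log2 fold change of both mutants. Its peak (chr19:34289890-34292189, middle 357 bases downstream of the start) had 1.88, 1.24 and 5.03 CPM in TKO, 19.7, 19.6 and 19.9 CPM in the CARM1 knockout and 18.9, 22.0 and 17.9 CPM in the NFIB mutant. Mutant libraries were close to each other and far above TKO (log2 fold change 2.87 ± 0.44, adjusted p = 0.000408, and 2.86 ± 0.44, adjusted p = 0.000365). With each library left out the values ran from 2.52 to 3.67 and from 2.51 to 3.66. The smaller Polk peak (chr13:96541246-96541653, middle 891 bases inside the gene) went from 0.0319, 0.340 and 0.0845 CPM to 1.52, 1.17 and 0.750 CPM and to 1.11, 0.674 and 0.726 CPM (2.86 ± 0.74, adjusted p = 0.00633, and 2.40 ± 0.74, adjusted p = 0.0140). The TKO values are 1, 11 and 2 counts, and without TKO library 2 the log2 fold changes were 4.29 and 3.83. In the CARM1 knockout this peak rose more than that of Fas with library totals (3.48 against 3.37). The main Polk peak is larger, also covers the start of Col4a3bp, and fell by 0.59 and 0.62. Both calls were lost with library totals, with totals without dominant peaks and with at least 10 counts in every library. They were also lost without CARM1 knockout library 1 in the first comparison and without NFIB mutant library 1 in the second. Polk RNA was not called.

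The peak of Tnfrsf10b (chr14:69767143-69768659) rose from 2.49 to 3.76 CPM in TKO to 7.55 to 10.04 and 8.46 to 10.2 CPM (log2 fold change 1.6 ± 0.33 and 1.64 ± 0.33). That of Dram1 (chr10:88356144-88357972) rose from 6.40 to 14.4 CPM to 19 to 22.9 and 18.9 to 31.0 CPM (1.14 ± 0.32 and 1.32 ± 0.32). At Dram1 the RNA difference is far larger than the peak difference, and its TKO promoter was already open at a lower level. Pmaip1 rose by 1.91 ± 0.59 and 1.72 ± 0.59, with TKO library 3 the highest control at 5.70 CPM. The Fas, Tnfrsf10b, Dram1 and Pmaip1 rises were called under all 17 alternative settings in both comparisons.

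Ptp4a3, a phosphatase of the PRL family, had the lowest mean fold change. Its peak (chr15:73745945-73749230) had 54.3, 30.1 and 26.1 CPM in TKO, 7.18, 9.74 and 14.4 CPM in the CARM1 knockout and 14.5, 8.59 and 12.9 CPM in the NFIB mutant (log2 fold change -1.82 ± 0.35, adjusted p = 0.00138, and -1.62 ± 0.35, adjusted p = 0.00226). Ptp4a3 RNA did not follow (0.01 ± 0.39 and -0.31 ± 0.39). The peak of Perp (chr10:18844511-18845486) had 8.64, 5.32 and 6.63 CPM in TKO, 0.698, 2.88 and 2.25 CPM in the CARM1 knockout and 5.86, 2.02 and 1.81 CPM in the NFIB mutant. It fell in the CARM1 knockout (-1.82 ± 0.61, adjusted p = 0.0225) and not in the NFIB mutant (-1.09 ± 0.60, adjusted p = 0.125), where library 1 overlapped TKO. The second value was called lower without NFIB mutant library 1 (-1.83) or CARM1 knockout library 1 and by DESeq2 or with its size factors.

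At Pidd1 the peak (chr7:141440406-141444525) had 42.0, 44.5 and 36.6 CPM in TKO, 17.1, 18.1 and 17.4 CPM in the CARM1 knockout and 14.8, 16 and 14.4 CPM in the NFIB mutant, and it holds the p53 element printed above. It fell by 1.23 and 1.44 on the log2 scale (adjusted p = 0.000174 and 6.85e-05). The second Sesn1 peak (chr10:41886799-41888097) fell by 1.14 and 1.10, and the first, shared with Cep57l1, by 0.57 and 0.56. The falls at Pidd1, Ptp4a3 and the second Sesn1 peak were called under all 17 alternative settings in both comparisons. At Ccng1, whose peak also holds the element, accessibility was 34.7 to 37.2 CPM in TKO, 23.2 to 26.6 in the CARM1 knockout and 22.0 to 27.0 in the NFIB mutant. The fall (-0.53 and -0.51) was called in both comparisons. Both calls were lost with library totals, with totals without dominant peaks and with at least 10 counts in every library. The first was also lost without CARM1 knockout library 1. The second was also lost without TKO library 2 or NFIB mutant library 1 or with the compared groups alone. The Rps27l peak, which holds the element too, was not called (-0.14 and -0.33). At Eda2r the peak had 0.988, 0.433 and 18.9 CPM in the TKO libraries, so that library 3 was high in both assays.

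Promoters at which RNA and accessibility moved together in both mutants are shown for Fas and Dram1, which rose, and Pidd1, which fell, as the 250 bases before the start (RefSeq, GRCm38.p6) with each CpG in capitals. RefSeq promoters were matched for 31 of the 40 genes, Tnfrsf10b not among them. The Fas stretch (chr19:34290409-34290658, plus strand) has 11 CpGs, that of Dram1 (chr10:88357076-88357325, minus strand) 31, and that of Pidd1 (chr7:141444026-141444275, minus strand) 11, beside a median of 6 over 32851 promoters. The Fas and Pidd1 stretches, of genes that moved in opposite directions, have the same number.
Fas: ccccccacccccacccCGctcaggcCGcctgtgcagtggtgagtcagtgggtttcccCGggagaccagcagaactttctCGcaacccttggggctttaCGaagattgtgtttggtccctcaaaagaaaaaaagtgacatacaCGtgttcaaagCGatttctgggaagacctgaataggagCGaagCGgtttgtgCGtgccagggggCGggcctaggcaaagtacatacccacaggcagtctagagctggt
Dram1: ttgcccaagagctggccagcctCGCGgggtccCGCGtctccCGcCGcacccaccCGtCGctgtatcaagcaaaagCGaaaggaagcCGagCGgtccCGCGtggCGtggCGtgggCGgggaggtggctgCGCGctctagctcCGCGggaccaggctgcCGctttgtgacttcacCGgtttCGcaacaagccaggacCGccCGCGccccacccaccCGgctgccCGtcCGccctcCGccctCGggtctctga
Pidd1: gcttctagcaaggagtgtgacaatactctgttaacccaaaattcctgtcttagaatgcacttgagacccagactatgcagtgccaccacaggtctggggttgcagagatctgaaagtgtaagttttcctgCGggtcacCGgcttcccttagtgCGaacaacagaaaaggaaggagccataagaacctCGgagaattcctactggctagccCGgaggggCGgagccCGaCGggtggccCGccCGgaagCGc

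RNA and start-site accessibility were set side by side with the peak that had the most reads for each gene. In the CARM1 knockout Fas, Tnfrsf10b and Dram1 were higher in both assays and Btg2, Pidd1, Zmat3, Sesn1 and Xpc lower in both. In the NFIB mutant the same held with Trp53inp1 in place of Xpc. With library totals, which raise the median of all peaks by 0.57, the falls at the Btg2, Zmat3, Xpc and Trp53inp1 peaks and at the most-read Sesn1 peak were lost. Those at Pidd1 and at the second Sesn1 peak were still called. Totals without dominant peaks also ended the calls at the Zmat3, Xpc and Trp53inp1 peaks and at the most-read Sesn1 peak. The most-read Sesn1 peak and that of Trp53inp1 also lost their calls with at least 10 counts in every library. They lost them as well without CARM1 knockout library 1 or NFIB mutant library 1 in the respective comparison. The Sesn1 call was further lost without NFIB mutant library 3, and that of Xpc in the CARM1 knockout without TKO library 2. The Xpc peak also covers the start of Lsm3. Its CARM1 knockout libraries, at 19.8 to 27.5 CPM, overlapped TKO, at 26.1 to 51.1 CPM. Btg1 rose in RNA while its peak fell by 0.59 and 0.72. That fall was not called with library totals or with totals without dominant peaks in either comparison. In the first it was also not called with at least 10 counts in every library or without TKO library 3. Mdm4, Ppm1d, Plk2 and Phlda3 changed in RNA without a call at their peaks, where the log2 fold changes ran from -0.22 to 0.13. Library totals called the Plk2 peak (0.61 and 0.52) and the Phlda3 peak (0.65 and 0.56) higher in both mutants, beside the Mdm4 peak in the CARM1 knockout. Across the 38 genes Pearson's r was 0.72 in each comparison, beside 0.733 and 0.785 across 13944 genes. Without the 3 genes higher in both assays, r was 0.418 and 0.400 across 35 genes. Genes share the libraries and are not replicates, so these values are descriptions.

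**Figure D4:**
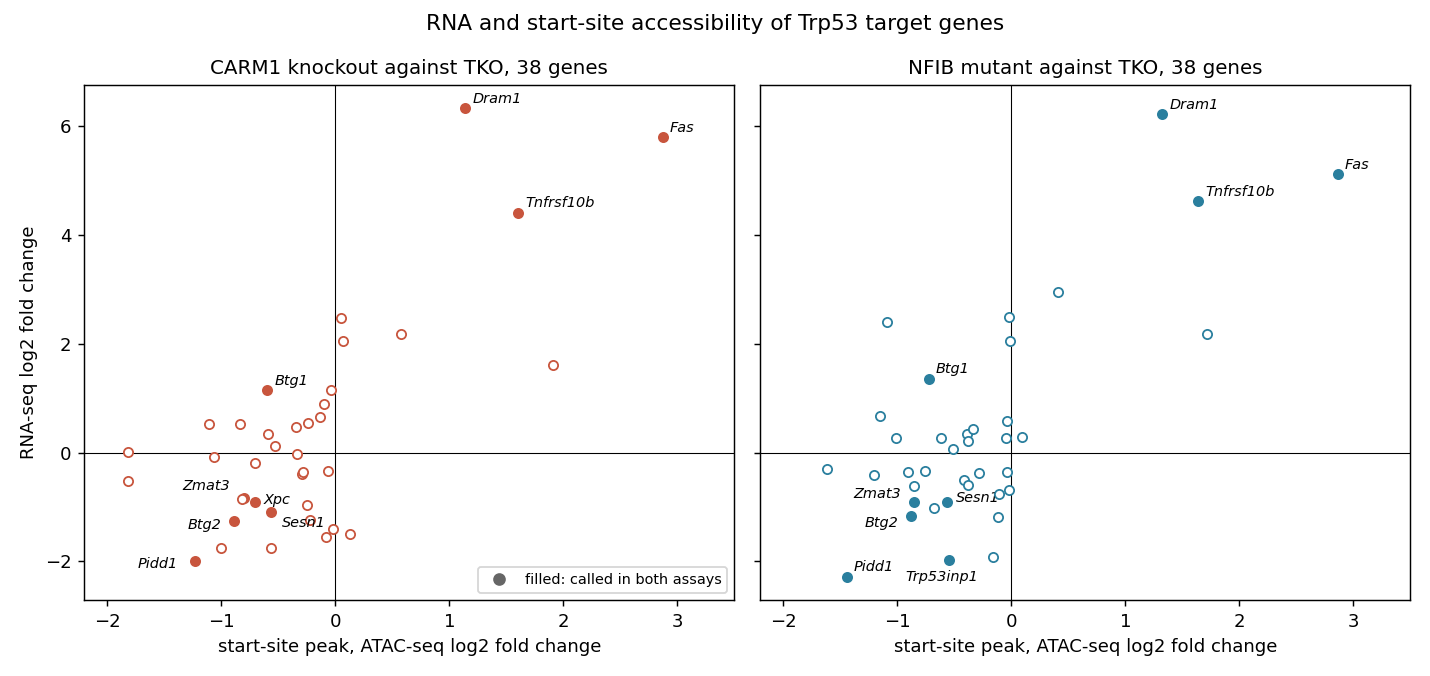
RNA log2 fold change (vertical axis) against the log2 fold change of the start-site peak with the most reads (horizontal axis) for 38 Trp53 target genes, CARM1 knockout against TKO on the left and NFIB mutant against TKO on the right. Filled and named points were called in both assays. Dram1, Fas and Tnfrsf10b lie at the upper right and Pidd1 at the lower left, with Btg1 above 0 in RNA and below 0 in accessibility.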

How the data were processed

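RNA-seq and ATAC-seq were each performed on 9 libraries, 3 per genotype. The deposited RNA file holds counts per Ensembl gene that the authors made with Trim Galore, HISAT2 and htseq-count on GRCm38. The deposited ATAC file holds counts per peak of a merged peak set, made by the authors after Bowtie2 alignment, duplicate removal and peak calling, and its header names featureCounts 1.6.3. The methods name MACS2 and the submitters' processing notes Genrich. The strand setting is not given in the sources used here. The 5 summary entries of htseq-count were left out. Reads without a gene were 3.65% to 12.2% of all entries, ambiguous reads 3.84% to 4.50% and reads with several alignments 3.18% to 6.31%. Columns were matched to genotypes by their prefix.

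Genes were named from GENCODE on GRCm38. Counts were tested with edgeR 4.0.16 in R 4.3.3 (filterByExpr, TMM, robust quasi-likelihood fit of all 9 libraries in 1 model, Benjamini-Hochberg adjustment over all features tested). Genes were called at an adjusted p under 0.1 and a log2 fold change of at least 0.8 in size, peaks at 0.1 and 0.5. Errors after ± are standard errors derived from the F statistic. The procedure was tested on simulated data. The libraries of a genotype came from separate animals. The standard errors include the spread between libraries of a genotype, whereas the floor of 3 counts covers counting error only.

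The 40 genes, their role groups and the further lists were chosen with earlier results of these data known. Library values are given for Cdkn1a, Mdm2, Bax and Ccng1, for up to 12 genes called in at least 1 mutant whose libraries of that mutant all lie beyond TKO, ranked by the size of the mean log2 fold change of both mutants, and for the 2 highest and the 2 lowest peaks. Other genes and peaks with values were added as examples after their values were seen. The alternatives were DESeq2 1.42.0, other scalings, filters, thresholds, start-site windows (500 bp) and peak sums, a replicate block, the compared groups alone and leaving out each library.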

Additional observations from a re-analysis of the deposited data

How the results depend on the processing

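The counts of called target genes and of their peaks, the fold changes of 16 genes and 4 peaks chosen by rule and the correlation of RNA with accessibility were recomputed with other scalings, filters, tests and thresholds and with each library left out. Of 248 recomputed counts and correlations, 233 stayed within 1.5 times the reported count or within 1 SD (over the left-out libraries) of the reported correlation, and 15 moved. Of the recomputed fold changes, 669 kept their direction and call, 12 changed direction, 32 lost and 11 gained a call. Without a minimum fold change 10 genes rose in the CARM1 knockout. No share of all genes is given for that setting, so this count is not a result about the list. Leaving out each library in turn gave 5 to 9 higher and 6 to 11 lower genes in the CARM1 knockout and 6 to 11 higher and 3 to 7 lower genes in the NFIB mutant, with 3 lower without TKO library 3 and 4 without NFIB mutant library 2 or 3. At the peaks it gave 5 to 6 higher and 12 to 17 lower in the first and 5 to 6 higher and 13 to 18 lower in the second. Shares of all genes are given only for the fits without TKO library 3, CARM1 knockout library 3 or NFIB mutant library 1. No share of start-site peaks is given for any fit with a library left out. The ranges therefore have no full background beside them and are not a result about the list. Between the mutants 0 genes and 0 peaks were called in every such fit, and DESeq2 called 1 gene lower.

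Library totals gave 10 higher and 4 lower peaks in the CARM1 knockout and 11 higher and 5 lower in the NFIB mutant. Totals without the peaks that hold over 0.5% of the counts of a library gave 7 and 8 lower peaks. No share of all start-site peaks is given for these scalings, so these counts have no background beside them. Relative to TMM, library totals moved the median of all genes by -0.27 and -0.33 and that of all peaks by 0.57 in both comparisons. They also turned the NFIB mutant value of Cdkn1a to -0.044 and of Bax to -0.073, and the Ccng1 values to -0.19 and -0.28. None of these was called. Ccng1 was further -0.0096 in the NFIB mutant with at least 10 counts in every library. With libraries left out it ran from -0.25 to 1.42 in the CARM1 knockout and from -0.30 to 1.37 in the NFIB mutant, and it was above 1 only without TKO library 3. The correlation of RNA and accessibility ran from 0.692 to 0.825 and from 0.698 to 0.822.

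With the replicate block, 6 genes were higher and 8 lower in the CARM1 knockout, 7 and 6 in the NFIB mutant, 5 and 17 peaks in the first, 5 and 16 in the second, and 0 genes and 0 peaks between the mutants. The calls of Cdkn1a and Ddb2 in the CARM1 knockout and of Plk3 and Trp53inp1 in the NFIB mutant were then lost. No share of all genes or peaks called with the block is given, so the counts with the block have no background beside them. The labels do not tie equal numbers to a shared animal or batch, and deviations of same-numbered RNA libraries correlated at -0.297 to 0.118 and of ATAC libraries at -0.142 to 0.118. The smaller Polk peak was not tested with at least 10 counts in every library.

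With 3 animals per genotype and 15848866 to 20915057 RNA counts per library, genes near 0 in TKO such as Fas have fold changes that depend on few counts. The fibroblast sums separated both mutants from TKO, the neuroendocrine sums did so except in CARM1 knockout library 3, and their part in these results was not tested.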
